A study of Mus musculus with 2 samples.

Results

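The 8 genes described here store, import, export and sense iron in mouse cells: the ferritin chains Fth1 and Ftl1, the transferrin receptor Tfrc, the divalent metal transporter Slc11a2, the exporter ferroportin Slc40a1, the iron regulatory proteins Aco1 and Ireb2, and the heme oxygenase Hmox1. They were taken by gene name from both arrays, where 13 probes on 22 spots carried 1 of these names, of 41141 probes and 28080 gene names on the array. The probes were 60 bases long. Their polysome loading was measured in NIH3T3 cells, a mouse embryonic fibroblast line, grown in DMEM with bovine serum, either as control cells or after 3 h with 10 µM thapsigargin, which empties the calcium store of the endoplasmic reticulum and sets off the unfolded protein response. Lysates were run on sucrose gradients, and the fractions were joined into polysome RNA (P, labelled with Cy3) and free plus monosome RNA (FM, labelled with Cy5), which were hybridised together on 1 array per condition. The RNA of each array was pooled from 3 preparations, so there was no replicate array and no test between conditions was possible.

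Translation of iron mRNAs is a textbook case of control by an RNA hairpin. Aco1 and Ireb2 encode the proteins that bind iron-responsive elements when iron is scarce. Such an element in the 5′ leader of Fth1, Ftl1 and Slc40a1 blocks the start of translation while the protein is bound, whereas the elements in the 3′ end of Tfrc and of some Slc11a2 transcripts protect the mRNA from decay. Ferritin stores iron as a shell of heavy and light chains, the receptor Tfrc takes up iron bound to transferrin, Slc11a2 carries ferrous iron across membranes, Slc40a1 is the known iron exporter of mammalian cells, and Hmox1 frees iron from heme.

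What each probe can report depends on where it lies, and the stretches below are shown for that reason. They were read from the array files, 5′ to 3′, with positions on mm9 as the files place each probe. The Ftl1 stretch begins at the start codon, in capitals, so that this probe reaches from the leader into the coding region. The file lists 4 reference accessions for this probe, so other light chain sequences may add to its signal. The stretches of Slc40a1 and of the Slc11a2 probe for transcript variant 2 hold AATAAA, the usual polyadenylation signal, in capitals. That hexamer was found on the given strand in 4.71% of the 14657 mRNA probes used as background. Of the Slc11a2 stretches, 1 lies in a sequence that the file gives for both transcript variants, and the others belong to variant 1 and variant 2 alone. Whole probes are given only for that shared sequence and for 2 Ireb2 probes, each of which is free of stop codons in 1 or more of the 3 frames.
Fth1, bases 1 to 30, chr19:10059485-10059514, plus strand: atgtcaggctgccttcatcttttctataag
Ftl1, bases 36 to 60, chr7:52714977-52715001, minus strand: ATGacctctcagattcgtcagaatt
Tfrc, bases 1 to 30, chr16:32632255-32632284, plus strand: tgagcaagatcacattaacaaagactagtt
Slc11a2 shared, bases 1 to 60, chr15:100240516-100240575, minus strand: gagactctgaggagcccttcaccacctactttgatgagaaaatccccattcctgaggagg
Slc11a2 variant 1, bases 1 to 30, chr15:100223377-100223406, minus strand: tgttccctattcacttgattgtcactgaaa
Slc11a2 variant 2, bases 31 to 60, chr15:100218333-100218362, minus strand: ttgttatAATAAAgttcatgcttaatagct
Slc40a1, bases 31 to 60, chr1:45965255-45965284, minus strand: cctttcaatatccctgagaagAATAAAgaa
Ireb2 probe 2, bases 1 to 60, chr9:54731840-54731899, plus strand: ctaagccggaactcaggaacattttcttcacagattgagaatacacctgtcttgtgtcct
Ireb2 probe 3, bases 1 to 60, chr9:54756566-54756625, plus strand: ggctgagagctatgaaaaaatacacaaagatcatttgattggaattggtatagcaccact

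Translation efficiency was given by log2 P/FM, the log2 of the P signal over the FM signal after local background was subtracted, and the signal level by A, the mean of log2 P and log2 FM. Of the 13 probes, 12 had A above 4.5 on both arrays, and these 12 covered all 8 genes. Values for a gene are those of its brightest probe unless another is named. With 1 array per condition, the nearest measure of error was the disagreement between different probes of an accession, whose median SD was 0.29 for log2 P/FM in control cells, 0.28 under thapsigargin and 0.32 for the change between them, over 3438 accessions. Repeat spots of a probe were closer, with a median SD of the change of 0.10. Changes are thapsigargin minus control and are set beside the 14657 probes of NM accessions with A above 4.5 on both arrays, whose median change was -0.64. That median depended on scaling. It was -0.10 when each array was centred on its own median and 1.91 when the 10 spike-in probes set the scale of both, and the share of probes with a higher log2 P/FM was then 47.0% and 95.1% in place of 32.2%. Changes are therefore given both as measured and relative to the median.

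Most iron genes were better loaded relative to other mRNAs under thapsigargin than in control cells. All 8 had a change above the median of all mRNAs, as did 50% of the background probes by definition, and 6 of 8 had a higher log2 P/FM under thapsigargin, against 32.2% of the background. The median change of the 8 genes was 0.49, or 1.13 above that of all mRNAs. The changes ranged from -0.45 for Slc11a2 to 3.40 for Slc40a1. By probe, 11 of the 12 lay above the median and 7 of 12 were higher as measured. When both arrays were scaled to the spike-ins, all 8 genes were higher as measured. With a normexp background correction 5 of 8 lay above the median, Ftl1, Aco1 and Slc11a2 being below it.

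**Figure D1:**
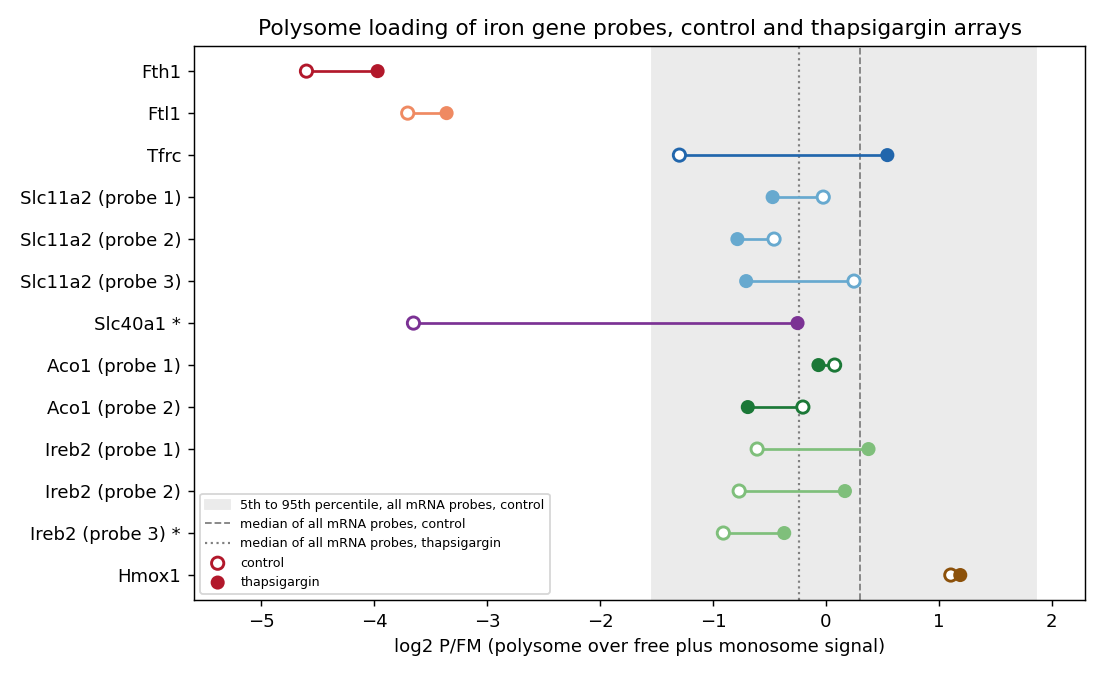
Log2 P/FM of the 13 probes of the iron genes (x axis) in control cells (open circles) and under thapsigargin (filled circles), with 1 row a probe and the brightest probe of a gene first. The grey band spans the 5th to 95th percentile of all mRNA probes in control cells (-1.54 to 1.86), the lines mark the medians (0.30 in control cells, -0.24 under thapsigargin), and an asterisk marks a probe not well above background in at least 1 channel. Fth1 and Ftl1 lie to the left of the band on both arrays, while Tfrc and Slc40a1 have the longest lines to the right.

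The 2 ferritin mRNAs were bright, with nearly all of their signal outside polysomes in both conditions. Fth1, the heavy chain that oxidises iron, gave a P signal of 3618 and an FM signal of 87787 in control cells, and 4058 and 63610 under thapsigargin. Its log2 P/FM was -4.60 and then -3.97, so that P held 3.96% and then 6.0% of the summed signal. Only 0.0819% of the background probes lay lower than Fth1 in control cells and 0.573% under thapsigargin. Ftl1, the light chain that helps to form the iron core, gave 7091 in P and 92404 in FM in control cells, and 3501 and 35930 under thapsigargin. Its log2 P/FM was -3.70 and then -3.36. Both chains were therefore low on both arrays, and Fth1 was the lower of the pair by 0.90 in control cells and 0.61 under thapsigargin, each more than the median SD between probes. With the processed signals of the scanner software, Fth1 was at -2.46 and Ftl1 at -2.22 under thapsigargin, closer than that SD. No ferritin spot was saturated.

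The change of Fth1 was 0.63, about 2 times the SD of 0.32 between probes, and that of Ftl1 was 0.34, about equal to it. Relative to all mRNAs these changes were 1.27 and 0.99. The signals moved unequally behind these ratios. For Fth1 the P signal was 1.12-fold and the FM signal 0.725-fold its control value, whereas for Ftl1 both were lower, at 0.494-fold and 0.389-fold. A of Ftl1 was lower by more than 1, with a change of -1.19, and Ftl1 was the only one of the 8 genes past that step, which 0.628% of the background probes also passed. With the spike-ins it did not pass. A of Fth1 had a change of -0.15. As the same mass of RNA was labelled for each array, and in bulk cells, less of an mRNA per cell and fewer cells holding it cannot be told apart. A further light chain probe, Ftl2, named from a bone marrow cDNA and very close in sequence, had a log2 P/FM of -4.02 and then -3.85 and a change in A of -0.90. Its ratios lay between those of Fth1 and Ftl1 on both arrays.

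Other mRNAs as bright as ferritin mostly had lower ratios under thapsigargin. Of the 343 background probes with A above 13 on both arrays, a set chosen after the values were seen, the median change was -1.96, and 17 probes, or 4.96%, had a higher log2 P/FM. Fth1 and Ftl1 were both among the 17, whereas none of the 90 ribosomal protein probes of the set (names in Rpl or Rps and a number) was. These counts of higher probes depended on scaling and came to 261 of 343 with the spike-ins, but the place of ferritin in the set depended on it less. Between 5 and 12 of the 343 probes had a change larger than that of Fth1, and between 15 and 26 one larger than that of Ftl1, over all the background corrections and scalings tried. Of the 32 bright probes with a control log2 P/FM at or below -3, 18 of them ribosomal, 5 were higher under thapsigargin: Fth1, Ftl1, the metallothionein Mt2, the poly(A) binding protein Pabpc1 and the RNA binding protein Ybx1. Without the limit on brightness, a rise was common among mRNAs this poorly loaded. Of the 97 background probes with a control log2 P/FM at or below -3, 55 were higher, and the median change was 0.30. In that set 42 probes had a larger change than Fth1 and 47 a larger one than Ftl1.

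**Figure D2:**
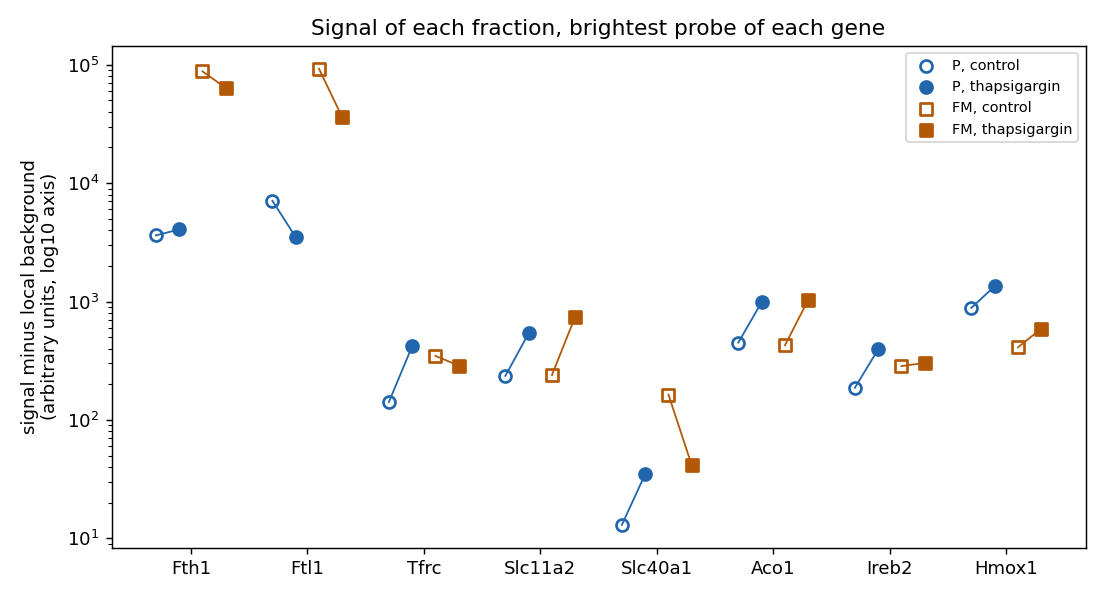
Signal minus local background of the brightest probe of each gene (y axis, arbitrary units on a log10 axis) in P (blue circles) and FM (brown squares), open for control cells and filled for thapsigargin. The FM signal of Fth1 and Ftl1 lies more than 10-fold above their P signal on both arrays. For Tfrc and Ireb2, P lies below FM in control cells and above it under thapsigargin, and for Aco1 the order turns the other way by a small margin. The control P signal of Slc40a1 was too dim to stand clear of background.

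Tfrc, the receptor for transferrin, had the largest change among the 7 members measured well above background throughout. It was also the only member printed on 10 spots. In control cells the P signal ran from 130 to 159 over these spots, with a median of 142, and the FM signal from 320 to 379, with a median of 350. Under thapsigargin P ran from 386 to 451, with a median of 427, and FM from 268 to 321, with a median of 284. The spots of the 2 arrays did not overlap in P, and in FM they met only at 320 to 321. Log2 P/FM was -1.30 ± 0.11 (SD over 10 spots of 1 array) in control cells and 0.54 ± 0.06 under thapsigargin. The change was 1.84 ± 0.13, or 2.49 relative to all mRNAs, and 96.0% of the background probes had a smaller one. The P signal was 2.96-fold and the FM signal 0.826-fold that of control cells, so the share of signal in P was 28.9% and then 59.3%. The spots share 1 RNA pool per condition, and their SD covers technical error only.

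Slc11a2, which moves ferrous iron out of endosomes, was the gene with the lowest change, and its 3 probes differed more in the change of A than in that of log2 P/FM. The probe for variant 2 gave 236 in P and 240 in FM in control cells, and 538 and 746 under thapsigargin. The probe for variant 1 gave 135 and 186, and then 105 and 180. The shared probe gave 50.6 and 42.5, and then 40.4 and 65.9. Log2 P/FM was lower under thapsigargin for all 3 as measured, with changes of -0.45, -0.32 and -0.96. The shared probe was the only one of the 12 past the threshold of -0.8 for sensitive mRNAs, where 45.2% of the background probes also lay, and the only one below the median of all mRNAs, at -0.31 relative to it. For variant 2 the measured change depended on scaling and was 0.10 with centring, 0.13 with loess and 2.10 with the spike-ins.

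The signal of the variant 2 probe was higher by more than 1 in A, with a change of 1.42, while the variant 1 probe had -0.20 and the shared probe 0.15. The variants are those of the file's descriptions, which do not say which one carries the iron-responsive element. The SD of the change in A over the 3 probes was 0.85, against a median of 0.18 for probes of an accession. Aco1 was the only other of the 8 genes whose A was higher by 1 or more, against 13.4% of the background probes, and with each array centred on its median neither passed that step.

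Slc40a1, the iron exporter, had the largest change of the 8 as measured, but on a dim probe. In control cells its FM signal was 164 and its P signal of 13 was not well above background. Under thapsigargin both channels were, with 34.8 in P and 41.4 in FM. Taking for the dim channel the lowest signal well above background on that array, 13.3, log2 P/FM was -3.62 in control cells, and -0.25 under thapsigargin. The change was then 3.37 (3.40 from the measured signals), and the P signal was 2.61-fold that of control cells. These values are not strict bounds, as some brighter P signals on the control array were also not well above background. The FM signal was 0.253-fold its control value, the lowest such ratio among the 8 genes. The size of the change rested on the subtraction of background, as it came to 1.57 without it and to 0.91 with a normexp correction. Under both of these settings the change of Tfrc was the larger. It was a single spot per array.

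Of the regulators, Ireb2 had a higher log2 P/FM under thapsigargin on both probes that could be read, and Aco1 a lower one as measured. Ireb2, the iron regulatory protein that is degraded when iron is plentiful, gave 187 in P and 285 in FM in control cells on its brightest probe, and 394 and 303 under thapsigargin. Log2 P/FM was -0.61 and then 0.38. The second Ireb2 probe gave 26.9 in P and 45.8 in FM, and then 35.5 and 31.5, with log2 P/FM at -0.77 and then 0.17. The changes of 0.99 and 0.94 differed by less than the SD between probes and lay 1.63 and 1.58 above the median of all mRNAs. Both were just short of the threshold of 1. The third probe was not well above background in either channel in control cells nor in FM under thapsigargin, and no ratio was read from it.

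Aco1, the cytosolic aconitase that binds iron-responsive elements once it has lost its iron-sulfur cluster, gave 450 in P and 426 in FM in control cells on its brightest probe. Under thapsigargin the signals were 989 and 1035. Both fractions were therefore more than 2 times as bright, at 2.20-fold and 2.43-fold, and log2 P/FM was 0.08 and then -0.07. The second probe gave 26.5 in P and 30.5 in FM, and then 32.2 and 52.0. The changes in log2 P/FM were -0.14 and -0.49 as measured, and 0.50 and 0.16 relative to all mRNAs, and the first was 2.41 with the spike-ins. The change in A was 1.21 on the bright probe and 0.52 on the dim one, so the 2 probes differed in the size of the increase.

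Hmox1, which cleaves heme into iron, biliverdin and carbon monoxide, was the best loaded of the 8 in both conditions. It gave 883 in P and 410 in FM in control cells, and 1348 and 590 under thapsigargin, with log2 P/FM at 1.11 and then 1.19. It was the only member with 0.8 or more on both arrays, the threshold for resistant mRNAs, which 3.54% of the background probes also met. The change of 0.08 was smaller than the SD between probes. P and FM were 1.53-fold and 1.44-fold their control values.

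**Figure D3:**
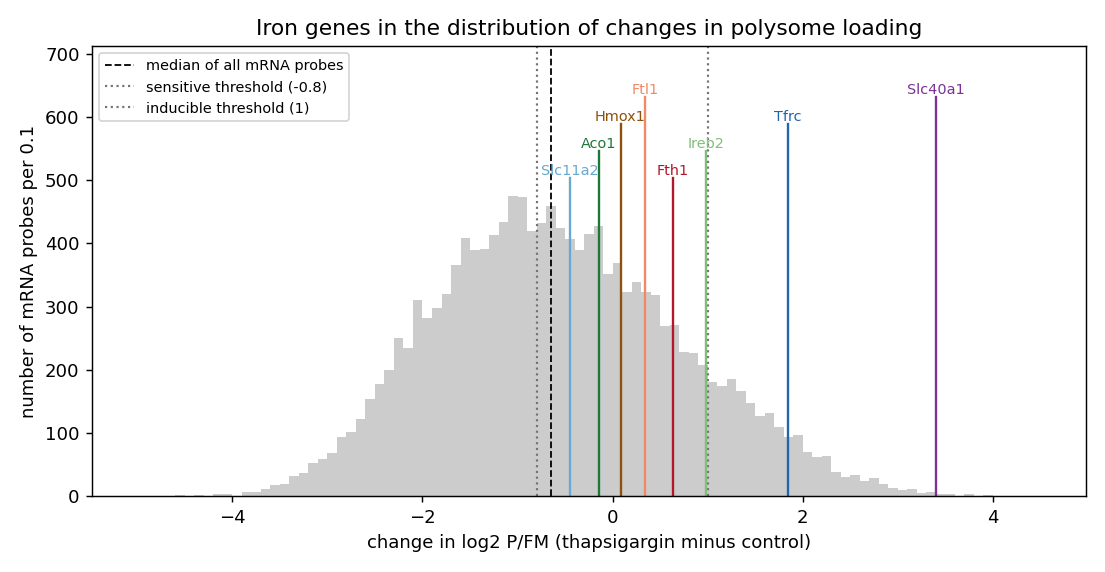
Number of mRNA probes per 0.1 of the change in log2 P/FM (x axis, thapsigargin minus control) for the 14657 background probes, in grey, with a coloured line at the value of the brightest probe of each iron gene. The dashed line marks the median (-0.64) and the dotted lines the thresholds at -0.8 and 1. All 8 lines lie to the right of the median, with Tfrc (1.84) and Slc40a1 (3.40) past the threshold at 1.

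Ordered by log2 P/FM in control cells, the genes ran Fth1, Ftl1, Tfrc, Ireb2, Slc11a2, Aco1 and Hmox1. Slc40a1 lay below Tfrc, but as its control P signal was not well above background it had no place against the ferritins. Slc11a2 and Aco1 were 0.10 apart, less than the SD of 0.29 between probes, and the other neighbours were further apart than it. The probes of Slc11a2 itself had a larger SD, 0.36, and its variant 1 probe, at -0.46, lay nearer to Ireb2. Fth1, Ftl1 and Slc40a1 were at or below -1.5, where 5.39% of the background probes lay. For Slc40a1 this level and its place below Tfrc depended on the subtraction of background. It was at -1.96 without subtraction and at -1.03 with normexp, above -1.5. With normexp Tfrc was at -0.92, closer to Slc40a1 than the SD of 0.29. Under thapsigargin the order was Fth1, Ftl1, Slc11a2, Slc40a1, Aco1, Ireb2, Tfrc and Hmox1. Slc11a2 and Slc40a1, Slc40a1 and Aco1, and Ireb2 and Tfrc were then closer than the SD of 0.28. The probes of Aco1 itself had an SD of 0.44 under thapsigargin. Hmox1 was thus the highest on both arrays, and Fth1 was below Ftl1 on both.

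With a control log2 P/FM at or below 0 and a change of 1 or more, the criteria for inducible mRNAs, Tfrc and Slc40a1 were 2 of the 8, against 11% of the background probes. This count depended on scaling and was 4 with centring and 5 with loess or the spike-ins, where Fth1 and Ireb2, and with the last 2 also Ftl1, passed as well. The signal in P was higher under thapsigargin for 7 of 8 genes, Ftl1 being the exception, against 53.1% of the background probes. The signal in FM was lower for 4 of 8, Fth1, Ftl1, Tfrc and Slc40a1, against 15.2%. P was higher and FM lower in 3 of 8, Fth1, Tfrc and Slc40a1, against 10.4%. By probe these 3 counts were 9, 6 and 4 of 12, and P was lower on the variant 1 and shared probes of Slc11a2. These signals were not scaled between arrays: the spike-in probes changed by a median of -1.51 in P and 0.97 in FM on the log2 scale, and all mRNAs by 0.08 and 0.71.

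**Figure D4:**
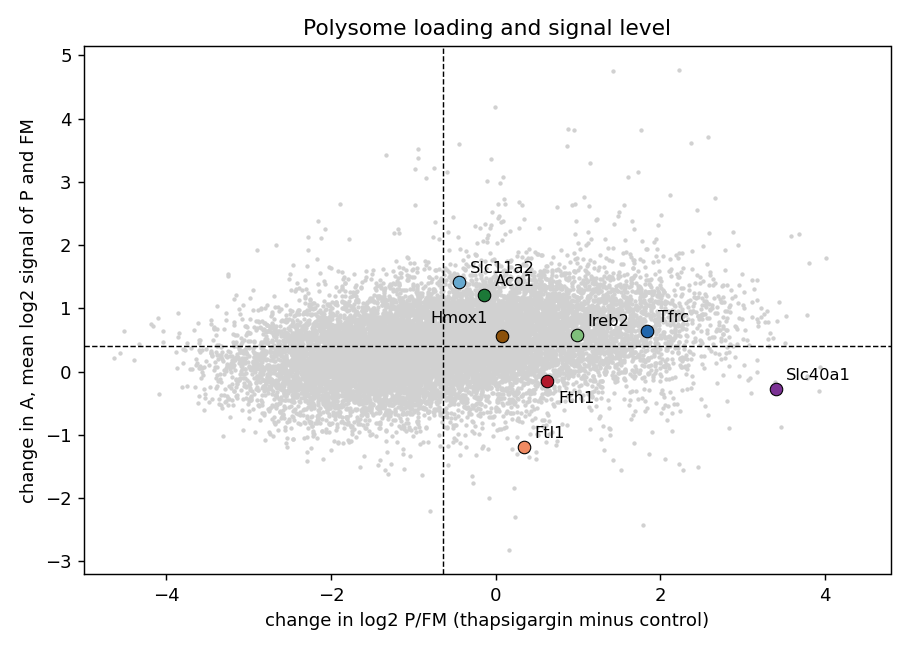
Change in A, the mean log2 signal of P and FM (y axis), against the change in log2 P/FM (x axis), thapsigargin minus control, for the background probes (grey) and the brightest probe of each iron gene (coloured). Dashed lines mark the medians of all mRNA probes (-0.64 and 0.40). Ftl1 lies lowest of the 8 on the y axis (-1.19) and Slc11a2 highest (1.42), while Slc40a1 lies farthest to the right.

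The genes nearest to each member over log2 P/FM and A on both arrays were sought among 13569 probes of NM accessions that were well above background in both channels of both arrays. For each ferritin chain the nearest was the other chain, at a Euclidean distance of 1.31 over these 4 values, and the next were Krtap4-6 and Rpl22l1 for Fth1 (1.45 and 1.53) and Ybx1 and 1110020P15Rik for Ftl1 (1.32 and 1.45). The other members had closer neighbours. They were Fndc3b, Kif20b and Zeb2 for Tfrc (0.26 to 0.35), Psmd1, Rnf168 and Xab2 for Aco1 (0.17 to 0.24), and Zkscan3, Wapal and E2f3 for Ireb2 (0.12 to 0.18). For Slc11a2 they were Adamts7, Sdad1 and Krr1 (0.24 to 0.34), and for Hmox1 Gspt1, Uhrf1 and Rbm34 (0.19 to 0.37). Slc40a1 was left out, as its probe was not well above background throughout.

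The other genes of iron and heme metabolism lay lower as a group than the 8. Of 76 such genes on the array, 57 had a probe of an NM accession in the background set, with 82 probes in all. Their median change was -1.01, or -0.36 relative to all mRNAs, and 45 of 82 were at or below -0.8, against 45.2% of all mRNA probes. Inducible probes were 5 of 82, against 11%, resistant ones 3 of 82, against 3.54%, and 22 were higher under thapsigargin, against 32.2%.

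Other mRNAs with a described iron-responsive element were few and mostly dim. Of 6 genes on the array, 3 were in the background set. Among them Cdc14a, a phosphatase, had a change of 1.27, and Cdc42bpa, a kinase, had -0.08 on the brighter of its probes and 0.77 on the other, where P in control cells was not well above background. Every NM probe of these 3 genes in the background set, 4 in all, lay above the median. Alas2, the erythroid aminolevulinate synthase, Epas1 and Hao1 did not stand clear of background in control cells and gave no value.

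Genes outside the 8 were named by the probes with the highest or lowest change in their list, which are not always the brightest. Ncoa4, the receptor that delivers ferritin to lysosomes, had a log2 P/FM of -1.33 and then 0.73 on its bright probe, a change of 2.06, but a dimmer probe had -0.29. The iron chaperones of the Pcbp family lay below the median of all mRNAs on every probe, with changes from -1.40 to -2.55 for Pcbp2 with its 3 probes and at -1.97 and -1.85 for Pcbp1. Of the ligase that degrades Ireb2, Fbxl5, the subunit that senses iron, had a change of 0.54 on its highest probe, and 0.49 and -0.09 on the others in the background set. Rbx1 had 1.97 on its dimmest probe but 0.39 and 0.44 on the brighter ones. Skp1a had -1.03 on its probe, and Cul1 ran from -1.02 to -0.30. Among uptake genes Lrp1, a receptor for heme bound to hemopexin, had 2.04 and the metal carrier Slc39a14 0.37 on 1 probe and -0.12 on another, while the reductase Steap1 and the channel Mcoln1 had -2.02 and -2.40. Cp, the ferroxidase that works beside Slc40a1, had 1.07, with a change in A of 1.38, and was the only one of 8 export and systemic genes in the background set.

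By the median of each list, heme and iron-sulfur genes lay below other mRNAs. Heme synthesis lay close to them, at -0.19, which is less than the SD of 0.32 between probes. Of its 10 probes 5 were at or below -0.8, against 45.2% of the background probes. The median changes of the heme synthesis, heme breakdown, iron-sulfur and ferritin delivery lists were below that of all mRNAs under every alternative tried, from -0.52 to -0.17 for synthesis, from -1.46 to -0.09 for breakdown, from -1.29 to -0.24 for iron-sulfur assembly and from -1.53 to -0.27 for delivery. That of the uptake list ran from -0.52 to 0.25. The synthesis enzyme Alad had a change of -2.96, while Alas1, which catalyses the first step, had 0.49 and 0.75 on its 2 named probes. Among genes of heme breakdown and transport, the biliverdin reductase Blvrb had -2.60 and the heme transporter Slc48a1 -2.43. Bach1, the heme-sensing repressor, had 0.64 and the exporter Flvcr1 0.58. Of 29 probes for mitochondrial iron and iron-sulfur assembly, 20 were at or below -0.8, against the same 45.2%. Iscu, the scaffold, was at -3.87 and Nubp1 at -3.34, while the iron importer Slc25a37 had 1.17 on its brightest probe and -0.12 on another. Isca1 had 0.64 on its brightest probe, and 0.87 and -0.34 on the others.

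The arrays carried the marks of their labels. All 10 fibroblast markers were well above background on both, whereas none of the 3 endothelial or 3 hepatocyte markers was. Of 5 epithelial markers Krt8 and Krt14 were detected in control cells alone, of 5 blood markers Cd68 on both arrays, and of 4 erythroid markers 1 under thapsigargin alone. The highest A among these other cell type markers was 5.71. The stress gene Ddit3 had a change in A of 3.71, the chaperone Hspa5 one of 1.96, and Atf4, whose translation is raised by eIF2 phosphorylation, a change in log2 P/FM of 3.42.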

How the data were processed

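Per the labels and the submitters' processing notes, both arrays were Agilent 2-colour arrays read with Agilent Feature Extraction 10.7.1, and the deposited intensity values are mean and median spot signals and local backgrounds, not normalized between arrays. Deposited log10 ratios and a table of log2 values by the authors were used as alternatives. That table was compared with means over all spots of an accession after the same background subtraction, with outlier spots kept. The 2 matched within 0.01 for all 11483 accessions on both arrays, which fixes the direction of the table as P over FM. From each mean spot signal the median of its local background was taken off with limma 3.58.1 in R 4.3.3 (results under 0.5 set to 0.5), and no scaling was applied, since equal volumes of P and FM entered labelling, per the labels, so that their RNA proportions were kept. Spots flagged as outliers on either array (295 of 43379) were left out and spots of a probe averaged. No spot was saturated. Probe genes are the array's names, with current symbols through RefSeq accessions.

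Between 42.5% and 46.3% of spots were well above background per channel and array. The number of arrays limits the precision. Classes follow the thresholds of the study (-0.8, 0.8, 0 with 1), and A above 4.5 its filter for mouse. For a probe not well above background, the dim channel was set to the higher of its own signal and the lowest signal well above background on that array (signals set to 0.5 excepted). This gives no strict bound. The named genes were all probes of the 8 genes, up to 2 highest and 2 lowest changes per list among probes well above background throughout, all mRNAs with other iron-responsive elements, and the 3 nearest genes of each member, of which some results are not reported here; other genes are named after their values were seen. The members and lists were chosen with earlier results of these data known. The class thresholds and median changes were tried on processed probe values with known changes in log2 P/FM added. Background correction, scaling, dim channels and changes in A were not covered by that trial.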

Additional observations from a re-analysis of the deposited data

How the results depend on the processing

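No paired analysis was possible because each condition has 1 array and no test was made. Over 18 alternatives for background, signals, scaling, filters, unit and background set, of which normexp or no subtraction on the main set of probes were added after seeing the data, the counts of members lay within 1.5 times the reported ones in 97 cases and outside in 25. Every member kept by a setting lay above the median of all mRNAs, except with normexp and offset 50, which passed all 26723 NM probes (5 members), and with normexp on the main set of probes, no background subtraction or accession means, where Slc11a2 lay below it (7 members). With 7 genes kept, A above 5.5, A above 7 and detection throughout gave 1 inducible gene, Slc40a1 having dropped out, as did normexp on either set of probes. It was 4 with the processed signals, the log ratio of the scanner software and centring, and 5 with loess and the spike-ins. Hmox1 was no longer resistant (0 genes) with normexp on either set of probes, processed signals, the log ratio and loess. Genes with A higher by 1 or more numbered 0 with normexp on either set, centring, accession means and symbol means, and 1 with processed signals. Genes with A lower by 1 or more numbered 2 with normexp on either set and 0 with the spike-ins.

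Among values that exceeded the SD between probes, the following turned their sign by more than that SD. With normexp, the change relative to all mRNAs became -0.016 for Ftl1, -0.28 for Aco1 and -0.21 for the median of the genes that regulate the iron regulatory proteins, and the relative change in A became 1.299 for Fth1 (0.35 on the main set of probes) and 0.28 for Ftl1. For Slc11a2 the measured change became 0.00592 with processed signals or the log ratio, 0.13 with loess, 0.10 with centring and 2.10 with the spike-ins, where its log2 P/FM under thapsigargin was 2.48. Smaller values turned their sign too. The relative change of Slc11a2, 0.20 as reported, was as low as -0.50 under the settings where it lay below the median. The measured change of Aco1, -0.14 as reported, was above 0, and at most 2.41, with normexp, processed signals, the log ratio, loess, centring and the spike-ins, and log2 P/FM of Slc40a1 under thapsigargin, -0.25 as reported, was above 0, and at most 2.70, with processed signals, the log ratio, loess and the spike-ins. Other values close to 0 also turned. The cause was not tested.

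Each value rests on 1 array and, for 12 of 13 probes, on 1 spot. The error of single-spot probes, dim ones such as Slc40a1 included, was not measured, and dye bias cannot be told apart from P against FM, as no dyes were swapped.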
